A study of Mus musculus with 2 samples.

Results

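Conventional type 1 dendritic cells (cDC1) were taken as the cells, of any tissue, with a value above 0 for both Xcr1 and Clec9a, at 0 for Cd3e, Cd79a and Siglech, and with a deposited natural-log value below 2 for C1qa. The members were thus chosen by measured levels of these 6 genes, which are not used as results. The rule found 338 of 12458 cells, 177 from WT and 161 from KO mice, 67 from tumours and 271 from lymph nodes. The study sequenced CD45-positive cells, enriched for dendritic cells by sorting, from 4 C57Bl6 mice that each received 500000 MC38-OVAdim cells (from the mouse colon carcinoma line MC38) under the skin of the flank. The mice labelled WT (WT1 and WT2) were Havcr2 fl/fl controls, whose alleles carry the sites for deletion, and those labelled KO (KO1 and KO2) were the mice in which Havcr2, the gene of the checkpoint receptor TIM-3, was targeted. The sources used here do not give the Cre driver, the deleted exons or the age of the mice. Each mouse gave a tumour and the lymph nodes labelled dLN and ndLN, read here as draining and non-draining, so that there were 12 samples of 2 mice per genotype. WT1 and KO1 shared 1 droplet channel and WT2 and KO2 the other, and antibody tags marked the sample of each cell.

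cDC1 are the dendritic cells that take up dead cells and present their antigens on MHC class I to CD8 T cells, a process called cross-presentation, and they depend on the transcription factors Irf8 and Batf3. XCR1 binds a chemokine made by T and NK cells, and CLEC9A binds actin exposed by dying cells. Cells resident in lymphoid organs carry CD8α, whereas those of peripheral tissues and the cells that migrate from them carry the integrin CD103, encoded by Itgae. TIM-3 is an inhibitory receptor that cDC1 carry in addition to exhausted T cells.

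The label was checked on Naaa and Snx22, cDC1 markers that the rule did not use. Naaa had a UMI (a counted RNA molecule) in 98.8% of members and in 25.3% of the other cells. Snx22 had a UMI in 79.0% of members and in 1.05% of the others. Irf8 lay between 13.7 and 21.9 UMIs per 10000 in the 12 samples, and Batf3 between 1.51 and 2.55. Naaa and Snx22 together ranged from 7.89 to 11.4 over the samples. Summed over their lists, the markers of type 2 dendritic cells reached at most 2.31 UMIs per 10000 in any sample, those of mature dendritic cells 3.52 and those of plasmacytoid cells 3.88. T cell markers reached 0.0891 and B cell markers 0.294, which the rule itself keeps low by asking for no Cd3e and no Cd79a. Monocyte markers were the exception, at 4.83 to 8.34 in the nodes and 11.1 to 20.7 in tumours, where they exceeded the sum of Naaa and Snx22 in every sample.

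The edge of the rule lay in the tumour. Of 452 cells with Xcr1 and Clec9a, 114 were left out, 102 of them from tumours, and 99 were left out for C1qa. The highest C1qa value inside was 0.857 and the lowest among those left out for it was 2.05, on the natural-log scale. The 97 such tumour cells, 44 from WT and 53 from KO mice, had a median of 72.8 UMIs per 10000 for C1qb and 30.6 for Apoe, both macrophage genes, against medians of 0 in tumour members. Their median Clec9a was 0.638 against 2.26 in tumour members, and their median depth was 32360 UMIs. For Naaa the medians were 1.81 against 7.77 and for Snx22 0 against 0.743, in the same order. At the lower edge, 41 members had a single Xcr1 UMI and 21 a single Clec9a UMI, while 28 otherwise passing cells had Xcr1 alone and 152 had Clec9a alone.

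Members were deeply sequenced, with a median of 15213.5 to 21895 UMIs per cell over the 12 samples. The 2 channels shared 65 cell barcodes, carried by 5 members. Mice are the replicates, and 2 against 2 mice cannot give an exact permutation p below 0.3333 for a single value. Tests over genes used limma on each mouse's mean over its cells of log2(1 + UMIs per 10000), and a gene was called at a Benjamini-Hochberg adjusted p under 0.05. KO against WT within a tissue took its spread from all tissues fitted, without a mouse term, so tissues of 1 mouse counted as independent. These fits had 10 samples and 5 residual degrees of freedom for each node and 12 and 6 for the tumour. The fit over both nodes had 4 and 2, and its small p values lean on the spread pooled over genes. A level below is a mean of UMIs per 10000, and a difference is on the log2(1 + UMIs per 10000) scale, which understates the change of low genes.

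By the full rule, cDC1 were a smaller share of the sorted tumour cells in both KO mice. The difference kept its sign for cells with 2 of the 4 markers Xcr1, Clec9a, Naaa and Snx22 (-2.25 percentage points). It also did with cells thinned to 2000 UMIs (-0.415), where only 0 cells of KO1 and 1 of KO2 remained, and among cells with Flt3 or Zbtb46 (-3.83). Among the latter KO2 lay close to WT, at 19.35% against 20.45% in WT1 and 20.51% in WT2, and KO1 stood at 13.95%. The difference turned when the cells left out by the rule, mostly for C1qa, were counted. In the nodes the shares overlapped between genotypes. In tumours they made up 2.31% of the cells of WT1 and 1.60% of WT2, against 0.443% of KO1 and 1.27% of KO2. In dLN the shares were 3.77% in WT1, 1.61% in WT2, 5.89% in KO1 and 3.09% in KO2. In ndLN they were 5.71% in WT1, 1.98% in WT2, 2.09% in KO1 and 3.27% in KO2. Only in the tumour did the genotypes not overlap, and the exact 95% binomial intervals, which cover counting error alone, overlapped for KO2 (0.467% to 2.74%) and WT2 (0.915% to 2.58%). The KO minus WT difference was -1.10 percentage points in tumours (exact permutation test, two-sided, p = 0.3333), 1.80 in dLN (p = 0.6667) and -1.16 in ndLN (p = 1.0). With every cell that had Xcr1 and Clec9a counted, an alternative chosen after seeing the data, the tumour shares were 4.67% in WT1 and 2.19% in WT2 against 3.03% in KO1 and 5.71% in KO2. These overlapped, and the difference turned to 0.936 percentage points (exact permutation test, p = 0.6667). The rule left out 46 such cells of WT tumours and kept 55, and it left out 56 of KO tumours and kept 12. Both KO tumours gave 6 cells each, so every statement on KO tumour cDC1 rests on 12 cells. The sort sets the denominator of these shares. The Flt3 or Zbtb46 cells were those without Cd3e and Cd79a, a set that does not leave out plasmacytoid or mature dendritic cells. Among them, cDC1 of dLN made up 14.8% and 8.89% in WT and 25.5% and 25.3% in KO mice. These did not overlap (difference 13.5 percentage points, exact permutation test, p = 0.3333). Mature dendritic cells, with Ccr7 and Fscn1, numbered 302 and 278 in WT nodes against 101 and 48 in KO nodes. Their part in this difference was not tested. Among Flt3 or Zbtb46 cells the ndLN difference turned to 5.14. By the full rule the ndLN difference also turned, to 0.705, without WT1.

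**Figure D1:**
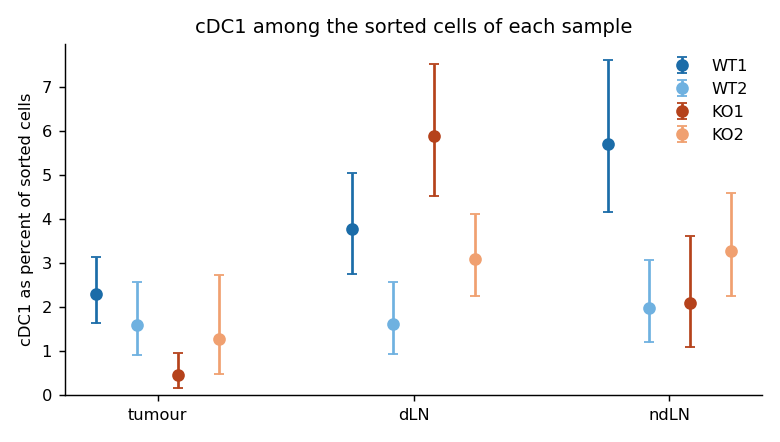
cDC1 as a percent of the sorted cells of each sample (y axis) in tumour, dLN and ndLN (x axis), one point per mouse with its exact 95% binomial interval. The KO points lie below the WT points in tumours (0.443% and 1.27% against 1.60% and 2.31%), which did not hold with the cells left out by the rule included, and the genotypes overlap in both nodes.

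Havcr2 checked the labels. It was present in the cDC1 of every WT sample and near 0 in those of every KO sample. In dLN its level was 1.28 in WT1 and 1.75 in WT2 against 0.0056 in KO1 and 0.0329 in KO2. In ndLN it was 0.985 and 1.27 in WT against 0 and 0.0136 in KO. In tumours it was 1.47 and 2.34 in WT against 0.279 and 0 in KO, and all 5 Havcr2 UMIs of KO1 tumour came from 1 of its 6 cells. The genotypes did not overlap in any tissue. With 2 mice against 2 this alone is common: of all genes tested, 34.0% did not overlap in dLN, 31.3% in ndLN, 34.9% over both nodes and 38.1% in tumours. Over both nodes, 80.2% of WT1 and 80.6% of WT2 cells held a Havcr2 UMI, against 1.39% of KO1 and 5.19% of KO2 cells, at median depths of 17329.5 to 19226.5 UMIs. B cells of the nodes, which lack the gene, held one in 0.332% of cells at a median of 3235 UMIs. After thinning each cell to 3000 UMIs the shares were 23.5% and 25.0% in WT, 0% and 1.30% in KO and 0.368% in B cells. The KO minus WT difference was -1.09 in dLN (SE 0.11, adjusted p = 2.64e-06), -0.90 in ndLN (SE 0.11, adjusted p = 0.000130), -0.99 over both nodes (SE 0.062, adjusted p = 8.11e-14) and -1.16 in tumours (SE 0.13, adjusted p = 0.000180).

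The other gene called in both nodes lay next to Havcr2. 2310031A07Rik, a long intergenic non-coding RNA, is annotated in mm10 on the minus strand of chromosome 11 from 46440362 to 46447248. Havcr2 follows on the plus strand from 46454935 to 46481255, 7.69 kb away. In cDC1 of dLN the level of 2310031A07Rik was 0.0355 in WT1 and 0.175 in WT2 against 1.39 in KO1 and 1.03 in KO2. In ndLN it was 0.317 and 0.108 in WT against 1.60 and 1.15 in KO. In tumours it was 0.508 and 0.850 in WT against 1.74 and 1.68 in KO. KO cDC1 were above WT cDC1 in every tissue, with no overlap. The difference was 0.84 in dLN (SE 0.11, adjusted p = 0.000225), 0.81 in ndLN (SE 0.11, adjusted p = 0.000511), 0.80 over both nodes (SE 0.066, adjusted p = 1.66e-10) and 0.61 in tumours (SE 0.13, adjusted p = 0.0546), the last short of the threshold. The dLN call was lost without WT1 (adjusted p = 0.412) or WT2 (0.926) and the ndLN call without WT1 (0.480) or WT2 (0.991), while the call over both nodes held whichever mouse was left out. The gene overlaps Med7, which lies on the plus strand from 46436925 to 46442721, and whether the counting used strand is not given in the sources used here, so reads of that overlap cannot be told apart. Med7 itself and the other neighbours that were tested gave no call in the nodes. The list of Havcr2 and its neighbours had 5 genes tested over both nodes, Havcr2 included, and only Havcr2 and 2310031A07Rik passed. In the other dendritic cells of KO nodes the gene was close to 0: it stood at 0 and 0.0361 in type 2 dendritic cells of the nodes, at 0.0165 and 0 in mature dendritic cells and at 0.00966 and 0 in plasmacytoid ones.

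**Figure D2:**
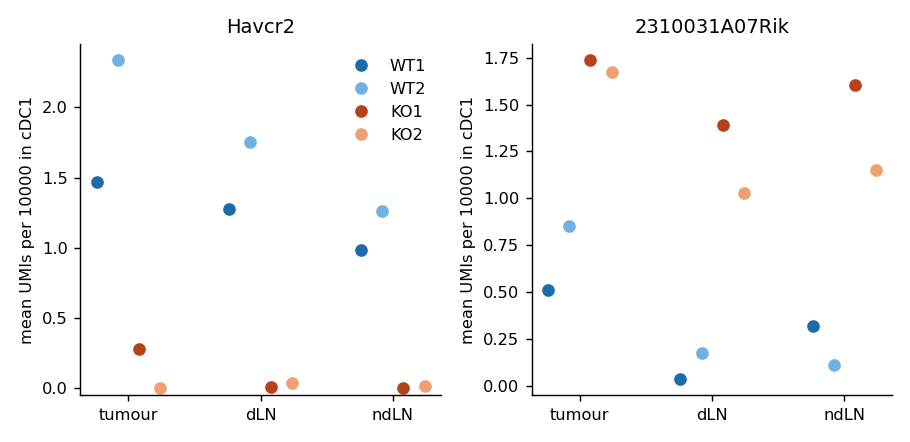
Mean UMIs per 10000 (y axis) of Havcr2 (left) and 2310031A07Rik (right) in cDC1 of tumour, dLN and ndLN (x axis), one point per mouse. Havcr2 lies between 0.985 and 2.34 in WT and at or below 0.279 in KO samples, and 2310031A07Rik lies between 1.03 and 1.74 in KO and at or below 0.850 in WT samples.

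Pooling both nodes gave the comparison with the most cells, 86 and 36 in WT1 and WT2 and 72 and 77 in KO1 and KO2. Of 8993 genes tested, 17 were called (0.189%), 15 higher and 2 lower in KO cDC1, and the median difference over all genes was 0.006. Besides the pair at the Havcr2 locus, the genes that were higher were chaperones and their partners (Hspa1a, Dnajb1, Hsp90ab1, Bag3, Hspa8, Hspb1), immediate early genes (Jun, Nr4a2), the cytokines Ccl4 and Il1b, and Tsc22d3, Gpr171, Gm6377 and Actb. Cxcl9 was lower.

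Hspa1a encodes the stress-inducible HSP70, which refolds damaged proteins. Its level over both nodes was 5.15 in WT1 and 8.32 in WT2 against 11.4 in KO1 and 9.63 in KO2. Both KO mice lay above both WT mice, and the WT mice differed from each other more than the KO mice did. The difference was 0.82 (SE 0.13, adjusted p = 0.000303), and with Havcr2 and 2310031A07Rik it was one of the 3 genes called whichever mouse was left out. Hspb1 encodes the small chaperone HSP27 and was low, at 0.0102 and 0.0376 in WT against 0.287 and 0.380 in KO nodes. Its difference was 0.14 (SE 0.029, adjusted p = 0.0297), and it was not called without KO1 (0.260) or WT1 (0.0938). Dnajb1, the HSP40 that feeds HSP70, stood at 1.80 and 2.24 in WT and at 4.26 and 2.45 in KO (difference 0.47, SE 0.11, adjusted p = 0.0406). Bag3, a co-chaperone of HSP70, stood at 0.749 and 0.372 in WT and at 1.29 and 0.960 in KO (difference 0.33, SE 0.071, adjusted p = 0.0272). Neither overlapped between genotypes, and 34.9% of all genes tested over both nodes did not either.

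The promoters of 2 of these chaperone genes are shown because they hold the paired unit that heat shock factor binds. The table of promoters held 4 of the 6 called chaperone genes. Both strands were searched over the 250 bases before each RefSeq start (build GRCm38.p6) for GAANNTTC or TTCNNGAA, each of which is its own reverse complement, and the forms may overlap. Hspa1a, at chr17:34972157-34972406 on the minus strand, held 1 match and Hspb1, at chr5:135887669-135887918 on the plus strand, held 2, while the listed promoters of Dnajb1 and Bag3 held none. Of 32851 promoters of that length, 12.8% held a match. Capitals mark the matches, and a match is a description of letters only.
Hspa1a: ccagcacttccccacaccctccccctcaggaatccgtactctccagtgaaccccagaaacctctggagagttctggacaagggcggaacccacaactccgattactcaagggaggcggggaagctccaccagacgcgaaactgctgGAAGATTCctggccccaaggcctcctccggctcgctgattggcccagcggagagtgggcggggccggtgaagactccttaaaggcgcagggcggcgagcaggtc
Hspb1: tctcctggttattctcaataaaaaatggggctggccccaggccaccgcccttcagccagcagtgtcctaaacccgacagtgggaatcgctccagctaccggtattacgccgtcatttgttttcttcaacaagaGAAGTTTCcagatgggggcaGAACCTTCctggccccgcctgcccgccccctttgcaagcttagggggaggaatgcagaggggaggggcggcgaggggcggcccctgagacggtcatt

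Tsc22d3 encodes GILZ, a leucine zipper protein induced by glucocorticoids. It stood at 0.938 in WT1 and 1.00 in WT2 against 2.33 in KO1 and 1.91 in KO2 nodes, well apart. The difference was 0.60 (SE 0.087, adjusted p = 0.000168), and without KO1 it missed the threshold (adjusted p = 0.132). Ccl4 encodes a chemokine and stood at 2.09 and 3.15 in WT against 6.10 and 3.97 in KO nodes (difference 0.55, SE 0.085, adjusted p = 0.000388). It too was lost without KO1 (adjusted p = 0.237), and 179 of the 803 Ccl4 UMIs of KO1 came from 1 cell. Il1b, the inflammasome-processed cytokine, stood at 1.61 and 1.63 in WT against 3.16 and 2.43 in KO nodes (difference 0.44, SE 0.089, adjusted p = 0.0212). For all 3 genes both KO mice lay above both WT mice, and 34.9% of all genes tested over both nodes did not overlap, in either direction.

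Cxcl9, the chemokine that draws CXCR3-bearing T cells, was the gene other than Havcr2 that was lower in KO cDC1 of the nodes. It stood at 9.79 in WT1 and 7.39 in WT2 against 3.49 in KO1 and 6.40 in KO2. The genotypes did not overlap over both nodes (difference -0.45, SE 0.10, adjusted p = 0.0471). In dLN alone they did, with 8.90 and 2.72 in WT against 2.999 and 6.23 in KO. Few cells carried most of its RNA: the 5 highest of the 271 node cells held 38.0% of 3447 UMIs, and in WT2 nodes 5 of 36 cells held 81.7%. The call was lost without WT1 (adjusted p = 0.168), KO1 (1.00) or KO2 (0.172).

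**Figure D3:**
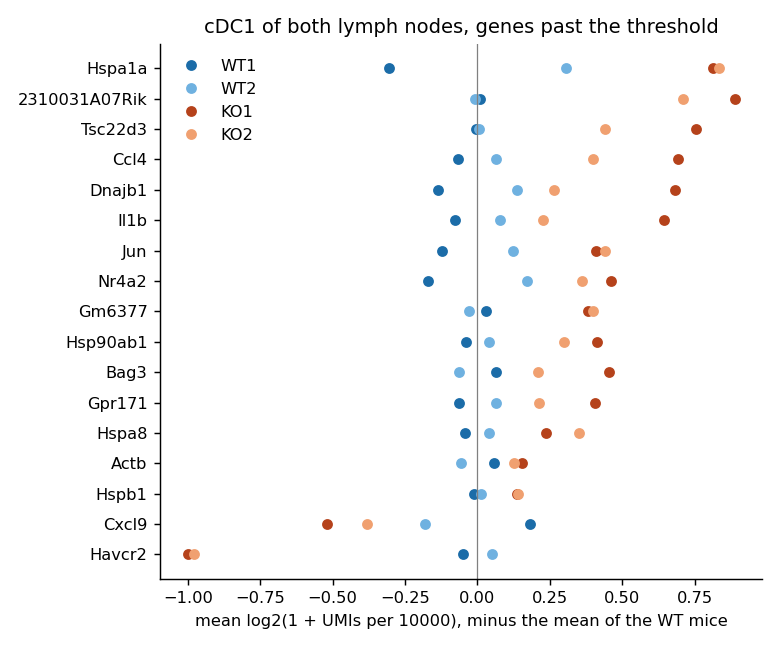
Mean log2(1 + UMIs per 10000) of each mouse minus the mean of the WT mice (x axis) for the 17 genes called between KO and WT cDC1 of both nodes (y axis), one point per mouse. Havcr2 and Cxcl9 lie below the WT mean in both KO mice and the other 15 above it. The genes were called between these same mice, so their separation is a description.

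These counts rested on single mice. Without KO1, 3 genes were called. Without WT1 there were 108, without WT2 41 and without KO2 17, and these included 12, 15 and 10 of the 17. With the droplet channel as a block there were 45, all 17 among them, 31 higher and 14 lower. KO1 also differed in its mix, since 83.3% of its node cells came from dLN against 50.0% in WT1, 47.2% in WT2 and 58.4% in KO2. With each node weighted equally in each mouse, 11 genes were called, 9 of the 17 among them, and Hspa8, Hsp90ab1, Dnajb1, Bag3, Jun, Actb, Hspb1 and Cxcl9 were not. Actb had a difference of 0.14 here but -0.034 when UMIs were summed per mouse and fitted with limma-voom, so no direction is given for it.

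By gene list, of 19 stress and immediate early genes, 17 were above 0 over both nodes with a median difference of 0.27, and 5 were called, all higher (Hspa1a, Dnajb1, Jun, Hsp90ab1, Hspa8). Of all genes tested, 55.5% were above 0 and 0.189% were called. Fos (difference 0.54, adjusted p = 0.148), Nr4a1 (0.55, 0.204) and Hsp90aa1 (0.49, 0.0533) were not called. Of 13 mitochondrially encoded genes, 12 were below 0 with a median of -0.14 and none was called (limma, adjusted). mt-Co1 had the lowest value of that list (difference -0.24, adjusted p = 0.0730). Among 4 monocyte markers tested, 3 were above 0 with a median of 0.27 and none was called, and the summed monocyte markers were 4.83 to 6.64 in WT and 6.92 to 8.34 in KO nodes. Their part in the chaperone and cytokine values was not tested.

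The lists that define the work of a cDC1 gave no call in KO nodes. Since 0.189% of all genes were called there, the absence of a call says little for lists of this size. None of 13 transcription factors was called (median difference -0.02). Irf8, the lineage factor, stood at 18.3 and 18.7 in WT against 20.3 and 19.0 in KO (difference 0.092, SE 0.081, adjusted p = 0.908). Batf3 stood at 2.14 and 2.17 against 1.92 and 2.02 (difference -0.094, SE 0.090, adjusted p = 0.914). None of 21 genes of cross-presentation and MHC class I (median -0.02), none of 10 of MHC class II (0.022), none of 10 uptake and Toll-like receptors (0.016) and none of 11 maturation genes (-0.004) was called. Of 18 inflammasome genes, which the study's title names, only Il1b was called, and the list's median was 0.006. Casp1, the protease that matures IL-1β, stood at 0.267 and 0.193 in WT against 0.270 and 0.243 in KO (difference 0.018, SE 0.053, adjusted p = 0.971). Pycard, the adaptor ASC, had a difference of -0.093 (SE 0.075, adjusted p = 0.893), and Nlrp3, the sensor, of -0.040 (SE 0.026, adjusted p = 0.877). None of 11 type I interferon genes was called (median 0.035).

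Taken by node, few genes were called. In dLN 2 of 9045 genes were called (0.0221%), Havcr2 and 2310031A07Rik. All 19 stress genes lay above 0 there, as did 58.0% of all genes, with a median of 0.33 against 0.011 over all genes, and none passed. Hspa1a stood at 3.60 and 8.98 in WT dLN against 11.97 and 7.84 in KO dLN, which overlapped on this scale. Its difference was 1.07 (SE 0.25, adjusted p = 0.397). Bag3 stood at 0.579 and 0.196 in WT against 1.37 and 1.23 in KO dLN (difference 0.50, SE 0.10, adjusted p = 0.0988), and it passed with the droplet channel as a block (adjusted p = 0.0315). In ndLN 4 of 9045 genes were called (0.0442%), and Nr4a2 and Ccl4 joined the pair. Nr4a2, an orphan nuclear receptor of the immediate early kind, stood at 1.89 and 2.70 in WT against 7.49 and 4.96 in KO ndLN (difference 1.10, SE 0.16, adjusted p = 0.000915). Ccl4 stood at 1.90 and 3.60 against 12.8 and 4.92 (difference 1.11, SE 0.22, adjusted p = 0.0417). The KO values lay above the WT values for both genes, and 31.3% of all genes tested in ndLN did not overlap, in either direction. Without WT2 no gene was called in ndLN, Havcr2 included (adjusted p = 0.0951), without WT1 Havcr2 alone, without KO1 3 genes (Ccl4 at adjusted p = 1.00), and without KO2 67.

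Whether the genotype difference itself differed between the nodes was tested with a genotype by node term. No gene of 8993 passed (0%; limma, 347 at an unadjusted p under 0.05). Irf7 came first, with a difference of differences of 0.87 (SE 0.19, adjusted p = 0.893), and Nr4a2 had -0.80 (SE 0.22, adjusted p = 0.994).

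Whether it differed between cDC1 and type 2 dendritic cells was tested on the within-mouse difference of both cell types in the nodes, and again no gene of 8993 passed (0%; limma, 439 at an unadjusted p under 0.05). 2310031A07Rik had 0.80 (SE 0.087) and Havcr2 -0.74 (SE 0.076), each at an adjusted p of 0.944. Type 2 cells were those with Cd209a, 42 to 83 per mouse. In them Havcr2 stood at 0.403 and 0.264 in WT against 0.0569 and 0 in KO mice, below the 1.13 and 1.495 of WT cDC1. Cxcl9 stood at 0.0874 to 0.381 in type 2 cells of the nodes and at 3.49 to 9.79 in cDC1, as a description. Hspa1a in the other dendritic cells of the nodes stood at 12.5 and 9.69 in WT against 11.7 and 18.7 in KO for type 2 cells, at 5.41 and 5.81 against 7.86 and 15.7 for mature cells with Ccr7 and Fscn1, and at 4.94 and 5.71 against 7.53 and 10.0 for plasmacytoid cells. KO exceeded WT without overlap in mature and plasmacytoid cells and overlapped in type 2 cells. With 2 mice against 2 such separation is common, at 34.9% of all genes tested in cDC1 of both nodes, either direction. That share was not computed for the other cells, and KO against WT was not tested within them.

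In tumours the KO comparison had 39 and 16 WT cells against 6 and 6 KO cells, fewer than the 10 cells per mouse set elsewhere, and was run with a minimum of 5. Of 9109 genes, 30 were called (0.329%), 9 higher and 21 lower in KO cDC1, with a median difference over all genes of -0.02. Cxcl9 stood at 5.91 in WT1 and 6.18 in WT2 against 1.07 in KO1 and 0.416 in KO2, with no overlap (difference -1.07, SE 0.19, adjusted p = 0.0228). A few WT cells carried most of it: 5 of 39 cells held 57.7% of the Cxcl9 UMIs of WT1 and 5 of 16 held 89.7% of those of WT2. Cells with a Cxcl9 UMI made up 69.2% and 68.8% in WT tumours against 66.7% and 50.0% in KO tumours. Mif, a cytokine that recruits and holds macrophages, stood at 6.29 and 6.88 against 2.42 and 2.67 (difference -1.04, SE 0.21, adjusted p = 0.0372). Cd74, the MHC class II invariant chain and a receptor for MIF, stood at 345.8 and 344.1 against 440.2 and 433.6 (difference 0.34, SE 0.035, adjusted p = 0.000108). Fcgrt, the neonatal Fc receptor, which carries antibody-bound antigen, stood at 1.62 and 1.44 against 3.21 and 3.23 (difference 0.77, SE 0.15, adjusted p = 0.0372). None of these 4 overlapped between genotypes, and 38.1% of all genes tested in tumours did not either. Slfn5, an interferon-induced schlafen protein, stood at 1.25 and 0.988 against 0.1603 and 0 (difference -0.68, SE 0.11, adjusted p = 0.0228). Ctla4, an inhibitory receptor of T cells, stood at 0.321 and 0.404 in WT tumours against 0 and 0 in KO tumours (difference -0.30, SE 0.040, adjusted p = 0.00283). Its UMIs lay in 9 of 39 and 3 of 16 WT cells, and 0 of 6 cells allows a share of up to 50.0% in each KO tumour. T cells of the tumour stood at 7.41 for Ctla4 and cDC1 of the nodes at 0.048, and the part of T cell RNA in this value was not tested.

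Of 13 glycolysis and hypoxia genes none was above 0 in KO tumour cDC1, against 42.9% of all genes, and the median was -0.48, against -0.02 for all genes, but only Hilpda, a hypoxia-induced lipid droplet protein, was called (difference -0.20, adjusted p = 0.0392). Hif1a, the hypoxia factor, had -0.51 (SE 0.11, adjusted p = 0.0520). Of 18 inflammasome genes none was called (median 0.023). Summed monocyte markers were 18.8 and 20.7 in WT against 11.1 and 11.3 in KO tumour cDC1. Summed type 2 dendritic cell markers were 0.241 and 0.452 in WT against 0.846 and 2.31 in KO. The 10 further cDC1 markers summed to 64.7 and 67.1 in WT against 44.0 and 60.2 in KO, and 9 of them lay below 0 (median difference -0.30) with no call. The part of these markers in the tumour values was not tested.

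The tumour calls did not hold when WT mice were left out. Without WT1, 2 genes were called and without WT2 none, Havcr2 included (adjusted p = 0.266). Without KO1 there were 677 and without KO2 678. With the channel as a block 18 were called, all among the 30, and Mif (adjusted p = 0.0534) and Fcgrt (0.0534) were not. Of the 12 KO cells, 2 had over 20 Cd8a UMIs (36 in KO1, 23 in KO2) and no Ifitm3 UMI, a state found in 33 of 271 node cells by its Cd8a count and in none of 55 WT tumour cells. The KO1 cell was also the one with all 5 Havcr2 UMIs, and it held 14 Cd207 UMIs and none of 2310031A07Rik. Whether its antibody tag was assigned to the right sample was not tested. Without both cells the Havcr2 difference was -1.27 (adjusted p = 8.73e-05). Without both cells 35 genes were called, 20 of the 30 among them, and Cxcl9 (adjusted p = 0.0476), Mif (0.0457), Cd74 and Fcgrt stayed past the threshold. Ifitm2 (difference -0.85, adjusted p = 0.0270 with them and 0.315 without) and Ifitm3 (difference -0.68, adjusted p = 0.0484 with them and 0.867 without) did not.

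Within a mouse, a small set of genes differed between cDC1 of the dLN and of the ndLN. With the mouse as a term, 14 of 8993 genes were called (0.156%), all lower in dLN, against a median of 0.006 over all genes. They were the nuclear receptors Nr4a1, Nr4a2 and Nr4a3, the RNA-decay factor Zfp36, the phosphatase Dusp1, the transcription factors Atf3, Rel and Csrnp1, the cytokines Ccl4 and Il1b, and Trib1, Gadd45b, Ifrd1 and Rilpl2.

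Nr4a1, induced by antigen receptor and growth signals, stood at 1.87 in WT1, 1.85 in WT2, 5.20 in KO1 and 2.07 in KO2 dLN, and at 2.84, 5.44, 9.24 and 8.54 in the ndLN of the same mice. Each of the 4 mice was higher in ndLN. The dLN minus ndLN difference was -1.03 (SE 0.16, adjusted p = 0.00117). Nr4a2 stood at 0.854, 1.22, 2.10 and 0.957 in dLN and at 1.89, 2.70, 7.49 and 4.96 in ndLN (difference -0.95, SE 0.13, adjusted p = 0.000154). Nr4a3 stood at 0.498, 0.0398, 0.401 and 0.158 in dLN and at 1.33, 0.842, 6.26 and 1.03 in ndLN (difference -0.69, SE 0.099, adjusted p = 0.000374). Atf3, a stress factor that restrains Toll-like receptor output, stood at 0.180, 0.377, 1.25 and 0.320 in dLN and at 0.649, 2.55, 2.12 and 1.15 in ndLN (difference -0.54, SE 0.085, adjusted p = 0.00140). These 4 genes were higher in the ndLN of every mouse and were called whichever mouse was left out. The other 10 were lost in at least one such fit.

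Of the 19 stress and immediate early genes, 17 lay below 0 in dLN with a median of -0.31, and 3 were called (Dusp1, Atf3 and Nr4a1). Fos, Jun, Junb, Egr1 and Ier2 were not. Of all genes, 54.6% lay above 0, and with no gene filter none was called (limma, adjusted). Of the 13 mitochondrial genes all lay below 0 (median -0.078) with no call. Havcr2 had a difference of 0.11 (SE 0.073, adjusted p = 0.978). The lists of transcription factors, antigen presentation, maturation and interferon genes gave no call, with medians between -0.015 and 0.049, where 0.156% of all genes were called. Leaving out a mouse gave 8 to 17 calls, 8 of them without KO2 and 9 without KO1, and without WT2 1 of 17 was higher in dLN. The nodes went through the same digestion, and their order of handling is not given in the sources used here, so node and handling cannot be told apart.

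**Figure D4:**
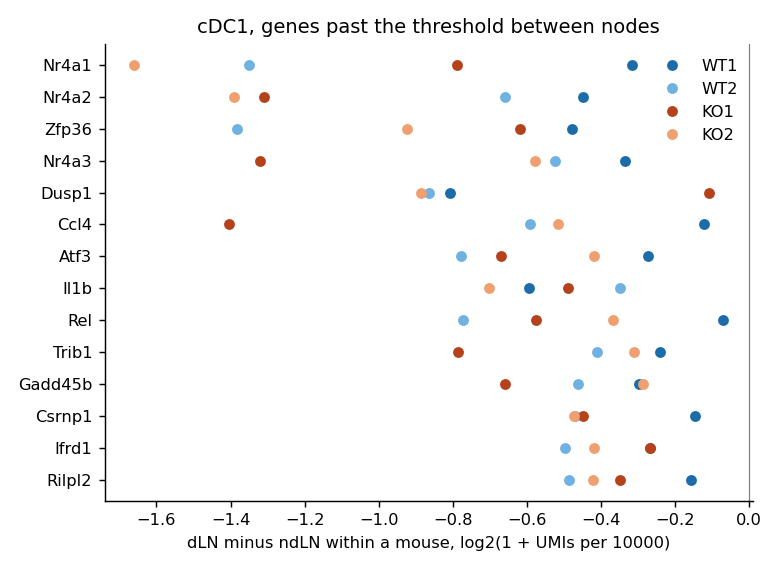
dLN minus ndLN difference within each mouse, in log2(1 + UMIs per 10000) (x axis), for the 14 genes called (y axis), one point per mouse. Every point lies below 0, from -0.070 for Rel in WT1 to -1.66 for Nr4a1 in KO2.

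cDC1 of WT tumours differed widely from cDC1 of the nodes of the same mice. Over WT1 and WT2, the 2 mice with at least 10 cells in both places, 959 of 9153 genes were called (10.5%), 725 higher (7.92%) and 234 lower (2.56%) in tumour, and 62.6% of all genes were above 0 with a median of 0.026. Against dLN alone it was 809 of 9207 (8.79%). With 2 mice and 1 residual degree of freedom the test leans on the spread pooled over genes. With all 4 mice at a minimum of 5 cells, 604 were called, 523 of the 959 among them.

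The interferon-induced transmembrane genes, which block viral entry, included the largest differences among the genes named. Ifitm3 stood at 24.0 in WT1 and 18.2 in WT2 tumour cDC1 against 0.261 and 0.326 in their nodes, and at 29.8 and 15.7 in KO tumours against 0.751 and 0.375 in KO nodes. The tumour samples lay far above the nodes in every mouse (difference 3.52 in WT, SE 0.14, adjusted p = 1.85e-125). T cells of the tumour stood at 1.46 for Ifitm3 and B cells of the nodes at 0.317. Ifitm2 stood at 16.8 and 14.4 in WT tumours against 0.369 and 1.37 in nodes (difference 3.07, SE 0.14, adjusted p = 1.09e-99). Ifitm1 stood at 19.4 and 5.89 against 0.0262 and 0 (difference 1.64, SE 0.10, adjusted p = 7.50e-51). Ifitm1 was uneven among cells, since 5 of the 39 cells of WT1 held 77.3% of its UMIs. T cells of the tumour were high for Ifitm1 too, at 11.03 against 0.0484 in B cells of the nodes.

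Other genes far higher in tumour were Ly6a, an interferon-inducible surface protein, at 14.2 in WT1 and 4.99 in WT2 against 0.640 and 0.793 in nodes (difference 1.83, SE 0.13, adjusted p = 3.81e-42), and Lgals3, galectin-3, at 13.7 and 20.7 against 4.06 and 4.86 (difference 1.72, SE 0.15, adjusted p = 7.36e-27). Among those lower were Ramp1, part of the receptor for the neuropeptide CGRP, at 0.449 and 0.551 against 1.92 and 2.33 (difference -1.05, SE 0.11, adjusted p = 9.56e-19), and Dnase1l3, which digests DNA from dead cells, at 0.344 and 0.381 against 1.97 and 2.33 (difference -0.91, SE 0.10, adjusted p = 1.77e-16). For these 4 genes both tumour values lay on the same side of both node values. Ly6a stood at 34.2 in T cells of the tumour, above cDC1, and at 5.48 in B cells of the nodes.

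Of 15 type I interferon genes tested, 11 were called higher and none lower, with a median of 0.26 against 0.026 over all genes. Of all genes 7.92% were called higher. Isg15, a ubiquitin-like modifier, stood at 5.05 and 4.26 in WT tumours against 0.149 and 0.737 in nodes (difference 1.17, SE 0.11, adjusted p = 4.61e-24). Irf7, which amplifies interferon production, stood at 5.49 and 4.23 against 0.755 and 1.55 (difference 1.01, SE 0.12, adjusted p = 2.15e-14). Of 15 interferon gamma genes, 12 were called higher and none lower, with a median of 0.42. Gbp2, a guanylate-binding protein, stood at 2.87 and 1.85 against 0.280 and 0.190 (difference 0.81, SE 0.093, adjusted p = 1.01e-15). Socs1, the feedback inhibitor of the pathway, stood at 2.33 and 3.42 against 0.230 and 0.221 (difference 1.14, SE 0.10, adjusted p = 3.22e-26). Cxcl9, by contrast, gave no call, at 5.91 and 6.18 in tumours against 9.79 and 7.39 in nodes (difference -0.10, SE 0.14, adjusted p = 0.753), nor did Cxcl10 (difference -0.072, SE 0.085, adjusted p = 0.697). Over all 4 mice Cxcl9 was called (difference -0.41, adjusted p = 0.0420), 8 of the 11 type I genes stayed called, without Oasl1, Usp18 and Ifi204, and 11 of the 12 interferon gamma genes, without Ifngr2. T cells of the tumour stood at 3.19 for Isg15 and 4.19 for Socs1, and B cells of the nodes at 0.418 and 0.369.

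The promoters of Isg15 and Ifitm2 are shown because both genes were called and both hold the paired interferon-stimulated element. GAAANNGAAA was searched on both strands, overlapping matches allowed, in the 250 bases before each RefSeq start (build GRCm38.p6). Of the 14 called genes of the type I list and the Ifitm family, 11 had an entry and 4 held a match (Ifitm2, Isg15, Stat2 and Bst2), against 2.98% of 32851 promoters. Isg15 lies at chr4:156200819-156201068 on the minus strand and held 3 overlapping matches. Ifitm2 lies at chr7:140955962-140956211 on the minus strand and held 1. Ifitm1 and Ifitm3, which moved with Ifitm2, held none in this window.
Isg15: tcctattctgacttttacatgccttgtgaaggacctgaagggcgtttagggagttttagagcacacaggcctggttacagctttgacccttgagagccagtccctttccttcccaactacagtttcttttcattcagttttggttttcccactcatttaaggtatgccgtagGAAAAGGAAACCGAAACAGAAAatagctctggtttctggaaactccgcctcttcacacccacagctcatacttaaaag
Ifitm2: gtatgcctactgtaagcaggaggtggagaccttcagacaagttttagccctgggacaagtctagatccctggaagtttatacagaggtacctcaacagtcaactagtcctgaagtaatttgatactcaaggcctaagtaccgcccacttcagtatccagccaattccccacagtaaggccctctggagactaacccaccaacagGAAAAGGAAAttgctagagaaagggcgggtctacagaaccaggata

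Glycolysis and hypoxia genes were higher almost without exception. Of 14 tested all lay above 0, 13 were called and the median was 0.76. Of all genes 62.6% lay above 0 and 10.5% were called. Ldha, lactate dehydrogenase, stood at 16.6 in WT1 and 14.99 in WT2 tumours against 5.96 and 5.38 in nodes (difference 1.35, SE 0.15, adjusted p = 4.53e-17). Pkm, pyruvate kinase, stood at 10.0 and 10.6 against 3.07 and 2.66 (difference 1.37, SE 0.15, adjusted p = 2.32e-17). Slc2a1, the glucose transporter GLUT1, stood at 0.756 and 0.940 against 0.106 and 0.0518 (difference 0.57, SE 0.086, adjusted p = 2.33e-09). The KO tumour values of Ldha (9.42 and 11.5) and Pkm (6.11 and 6.36) lay between those of WT tumours and of all nodes. T cells of the tumour stood at 16.6 for Ldha and 14.6 for Pkm, as high as cDC1 or higher. Over all 4 mice 10 of the 13 stayed called, without Vegfa, Hilpda and Hif1a.

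Residence genes changed in opposite directions. Cd8a stood at 0.273 and 0.0649 in WT tumours against 5.13 and 5.27 in nodes (difference -2.13, SE 0.12, adjusted p = 6.50e-67). Itgae stood at 1.62 and 2.26 against 0.247 and 0.198 (difference 0.86, SE 0.096, adjusted p = 8.61e-17). Among cells of the nodes, 197 of 271 had Cd8a UMIs without Itgae, 43 had both, 4 had Itgae alone and 27 neither. Among the 55 of WT tumours, 5 had Cd8a alone, 4 both, 25 Itgae alone and 21 neither. Cd24a, a surface glycoprotein of cDC1 (difference 0.93, SE 0.15, adjusted p = 2.00e-08), and Gpr183, an oxysterol receptor for positioning (0.75, SE 0.088, adjusted p = 4.25e-15), were also higher, and the chemokine receptor Ccr9 was lower (-0.31, SE 0.080, adjusted p = 0.00213).

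Antigen presentation was split, where 10.5% of all genes were called, 7.92% higher and 2.56% lower. Of 10 MHC class II genes 5 were called lower and 2 higher, with a median of -0.10. H2-Aa, a class II chain, stood at 107.3 and 106.3 in WT tumours against 142.8 and 139.7 in nodes (difference -0.37, SE 0.055, adjusted p = 2.11e-09), whereas H2-DMb1, part of the peptide editor, stood at 13.1 and 13.4 against 7.96 and 7.45 (difference 0.74, SE 0.15, adjusted p = 2.32e-05). Cd74 had -0.19 (SE 0.027, adjusted p = 3.32e-10) and was not called over all 4 mice (adjusted p = 0.673), nor were H2-Ab1 (0.0695) and H2-Oa (0.220). Of 21 class I and cross-presentation genes 4 were called, all higher, among them the peptide transporter Tap2 (0.65, SE 0.13, adjusted p = 2.32e-05) and the immunoproteasome subunit Psmb8 (0.61, SE 0.14, adjusted p = 0.000396). Of 14 transcription factors 5 were called, all higher: Id2, Nfil3, Bcl6, Spi1 and Runx3, with differences of 0.17 to 0.43. Over all 4 mice only Nfil3 of these stayed called (adjusted p = 0.0162), and Id2 (0.191), Bcl6 (0.597), Spi1 (0.0950) and Runx3 (0.0784) did not. Irf8 (difference 0.097, SE 0.13, adjusted p = 0.748) and Batf3 (-0.050, SE 0.13, adjusted p = 0.880) gave no call. Of 11 uptake and Toll-like receptors 2 were higher and 2 lower, the latter being Tlr11, the profilin sensor (-0.41, SE 0.090, adjusted p = 0.000138), and the lectin Cd207 (-0.34, SE 0.071, adjusted p = 6.61e-05). Of these 4 Tlr11 alone was called over all 4 mice, and Cd207 was not (adjusted p = 0.241).

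Of the 10 further cDC1 markers 6 were called, where 10.5% of all genes were, and they did not move one way. Itgae, Cd24a and Id2 were called higher in tumour. Cadm1 (difference -0.56, SE 0.093, adjusted p = 1.63e-07) and Ppt1 (-0.83, SE 0.15, adjusted p = 8.41e-07) were lower. Ifi205 stood at 9.40 in cDC1 of WT tumours and at 4.65 in cDC1 of all nodes. Summed, the 10 markers ranged from 64.7 to 67.1 in WT tumours and from 56.1 to 59.7 in WT nodes. Naaa and Snx22 gave no call. Of 14 maturation genes tested, Cd83 (0.68), Cd274, which encodes PD-L1 (0.32, SE 0.076, adjusted p = 0.000457), and Pdcd1lg2 (0.29) were called higher and Apol7c lower, and the median was 0.001. Cd83 was not called over all 4 mice (adjusted p = 0.110). Only 2 of the 338 members had both Ccr7 and Fscn1. Of 14 genes for growth factor receptors and survival, 5 were called, all higher: the receptors Csf2rb, Csf1r and Il4ra and the survival regulators Mcl1 and Bak1. Csf2rb, the common chain of the GM-CSF receptor, stood at 2.11 and 1.71 against 0.655 and 0.322 (difference 0.83, SE 0.11, adjusted p = 1.33e-12), and Il4ra at 1.65 and 1.36 against 0.103 and 0.155 (0.92, SE 0.095, adjusted p = 1.58e-19). The receptors Flt3, Csf2ra and Kit were not called. All 14 genes of that list lay above 0, as did 62.6% of all genes, and over all 4 mice Mcl1 (adjusted p = 0.237) and Bak1 (0.0637) were not called.

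Within the stress list the immediate early genes and the chaperones parted. Of 19 genes 10 were called higher and 4 lower in tumour, and over all 4 mice Jund (adjusted p = 0.137) and Nr4a1 (0.349) were not called. Of all genes 7.92% were called higher and 2.56% lower. Fos stood at 20.6 and 21.2 in WT tumours against 5.21 and 7.93 in nodes (difference 1.80, SE 0.15, adjusted p = 1.54e-29). Hspa1a stood at 0.501 and 1.36 against 5.15 and 8.32 (difference -1.84, SE 0.12, adjusted p = 1.53e-48). Hspa1b, Hspa8 and Dnajb1 were the others lower. T cells of the tumour stood at 0.423 for Hspa1a and B cells of the nodes at 8.78, values in which cell type and tissue cannot be told apart. Per the labels' protocols tumour suspensions went through a Percoll gradient, a step not named for the nodes, so tissue and preparation cannot be told apart.

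Of the 5 genes tested on the list of TIM-3 and its ligands, 2 were called, both higher in tumour. Lgals9, galectin-9, stood at 1.77 and 1.43 in WT tumours against 0.279 and 0.841 in nodes (difference 0.58, SE 0.10, adjusted p = 1.13e-06). Timd4, TIM-4, a receptor for phosphatidylserine, had 0.44 (SE 0.075, adjusted p = 2.52e-07), but its level was 2.95 in WT1 and 0.111 in WT2, and 5 cells of WT1 held 85.5% of its 200 UMIs. Havcr2 itself gave no call (difference 0.27, SE 0.12, adjusted p = 0.139). Of 19 inflammasome genes 2 were called, Il1b (0.88, SE 0.11, adjusted p = 1.87e-12) and Il18bp (0.11, not tested over all 4 mice), with a median of 0.005. That share is about the same as the 10.5% of all genes. Il1b stood at 4.78 and 3.74 in WT tumours against 1.61 and 1.63 in nodes. Tnf was lower (-0.34, SE 0.081, adjusted p = 0.000540).

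Markers of myeloid neighbours moved with the tumour, where 7.92% of all genes were called higher. Of 5 monocyte markers tested 4 were called higher, Plac8 (1.61, SE 0.15, adjusted p = 5.88e-25), Lyz2 (0.74), Ly6c2 (0.41) and Fcgr1 (0.33), and of 4 macrophage markers 2 (C1qb 0.16, Csf1r 0.18). Summed monocyte markers ranged from 18.8 to 20.7 in WT tumours and from 4.83 to 6.64 in WT nodes, with 1 marker at 0 in every sample. Summed macrophage markers without C1qa ranged from 1.77 to 1.97 and from 0.150 to 0.414. Their part in the tumour differences was not tested. Members also at 0 for C1qa, Cd209a, Ncr1 and Ms4a1 gave 888 calls, 795 of the 959 among them.

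**Figure D5:**
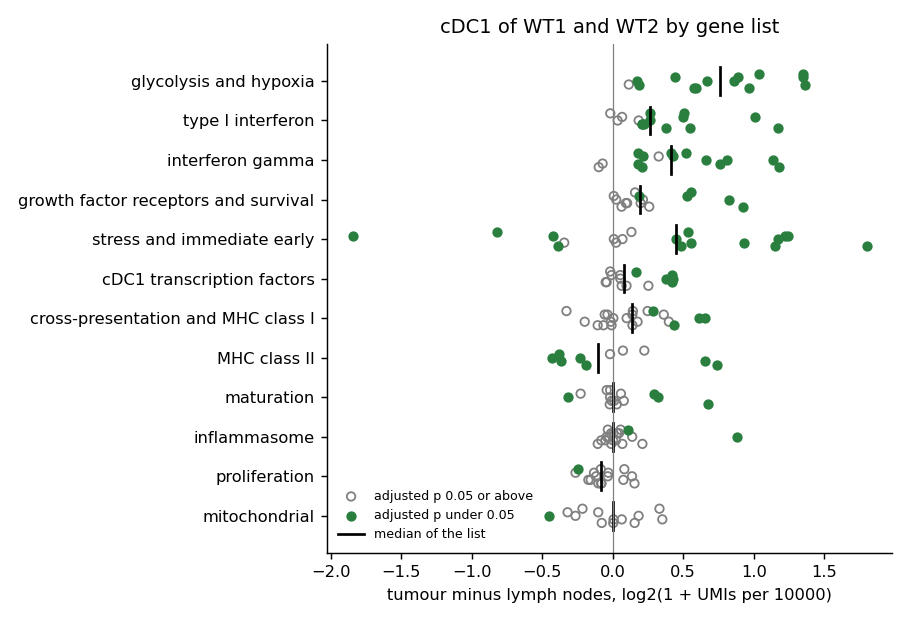
Tumour minus node difference in cDC1 of WT1 and WT2, in log2(1 + UMIs per 10000) (x axis), for the genes of 12 lists (y axis), filled where the adjusted p is under 0.05, with the median of each list as a black bar. Glycolysis genes all lie above 0 (median 0.76), interferon genes mostly so, and the stress list runs from -1.84 (Hspa1a) to 1.80 (Fos).

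Members also varied within a sample. Cells with both Mki67 and Top2a, genes of dividing cells, made up 43 of 271 node cells (15.9%), while in tumours they were 6 of 39 cells in WT1, 0 of 16 in WT2, 1 of 6 in KO1 and 0 of 6 in KO2. In nodes the share was 17.4% in WT1, 19.4% in WT2, 13.9% in KO1 and 14.3% in KO2, and the exact binomial intervals of all 4, which cover counting error alone, overlapped. Il12b, a subunit of IL-12, had 152 UMIs over the 271 node cells, and 141 of them lay in 1 cell of WT1, so its higher level there (1.52 in WT1 ndLN against at most 0.0723 in every other sample) is that of a single cell.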

How the data were processed

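Droplet 5′ RNA sequencing of CD45-positive cells was read from the matrix the authors deposited, whose values are the natural log of 1 + 10000 times a gene's UMIs over the cell's UMIs. Reads had been processed with Cell Ranger 3.0.2 on mm10, per the submitters' processing notes, and how cells were filtered and tags assigned is not stated in the labels. The matrix held 12638 genes and 12458 cells with 687 to 131217 UMIs, and undoing the log gave whole UMIs within 0.01 for 100.0% of values. No doublet caller was run. The members and gene lists were chosen with earlier results of these data known.

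Each mouse's cells were averaged on log2(1 + UMIs per 10000) and fitted with limma 3.58.1 (R 4.3.3), with a trended prior, for genes with a UMI in 5% of members and mice with 10 members (5 in the tumour comparison, since no KO tumour held 10). Comparisons between tissues had the mouse as a term, and those of KO against WT within a tissue or over both nodes did not. Xcr1, Clec9a, Cd3e, Cd79a, Siglech and C1qa were never results. Named genes were those of the lists and, per comparison, up to 10 called genes in each direction without overlap and above the median level, or the 5 with the smallest p where fewer than 5 passed. A droplet channel held 1 WT and 1 KO mouse per the labels, which pairs them; deviations of the pair correlated across genes at 0.017 in dLN, 0.157 in ndLN, -0.026 over both nodes and 0.014 in tumours. The fit of KO against WT over both nodes was tested on simulated data, and the other fits were not. Alternatives are given in the closing section.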

Additional observations from a re-analysis of the deposited data

Results flagged for a closer look

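Among the 14 genes called between the nodes, the within-mouse dLN minus ndLN difference of 1 mouse stood far from the other 3 for Csrnp1 and Dusp1. Csrnp1, an immediate early transcription factor, had -0.15 in WT1 against -0.47 in WT2, -0.45 in KO1 and -0.47 in KO2, so that the gap took up 0.921 of the whole range. Dusp1, a phosphatase of MAP kinases, had -0.11 in KO1 against -0.81, -0.86 and -0.89 in WT1, WT2 and KO2, a gap of 0.9 of the range. Chance alone marks about 1 in 20 such groups of 4, and 14 groups were looked at.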

How the results depend on the processing

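Of 687 repeats of a chosen set of the named genes under other settings, 491 kept their direction and side of the threshold. A further 195 kept the direction only, and 1, Actb over both nodes with limma-voom (-0.034), changed sign. The set held the genes called for KO against WT in the nodes and between nodes. Of the tumour calls it held only a few, Havcr2, Cd74, Cxcl9 and Mif for KO tumours among them. The number of genes called depended more on the setting. With log2(0.1 + level) it was 6 over both nodes, 2 in ndLN, 9 in tumours and 8 between nodes. With a UMI required in 20% of members it was 6 over both nodes, 9 in tumours and 9 between nodes. With no gene filter it was 1 in dLN, 0 in ndLN, 68 in tumours, 3 over both nodes and 0 between nodes. With limma-voom it was 1 in ndLN, 2 in tumours and 23 between nodes. A minimum of 5 cells gave 2 in ndLN and 604 for tumour against nodes. Members with 2 of 4 markers gave 10 in KO tumours, 1335 for tumour against dLN and 1446 against both nodes. Weighting both nodes equally, chosen after seeing the data, gave 11. With the droplet channel as a replicate block, which pairs WT1 with KO1 and WT2 with KO2, 18 genes were called in tumours and 45 over both nodes, and no other count moved by over 1.5 times. Leaving out 1 mouse gave 1 to 7 calls in dLN, 0 to 67 in ndLN, 0 to 678 in tumours, 3 to 108 over both nodes, 8 to 17 between nodes and 0 to 2 for the genotype by node term. The cause of these shifts was not tested. The KO minus WT share of cDC1 in tumours was -2.25 percentage points with 2 of 4 markers, -0.415 with cells thinned to 2000 UMIs (790 cells left out) and -3.83 among Flt3 or Zbtb46 cells, and it turned to 0.936 with every cell that had Xcr1 and Clec9a, chosen after seeing the data. Among Flt3 or Zbtb46 cells the KO minus WT difference was 13.5 in dLN and 5.14 in ndLN. By the full rule, leaving out 1 mouse gave -1.51 to -0.683 in tumours, 0.398 to 3.20 in dLN and -3.03 to 0.705 in ndLN. All 24 shares of cells with a Havcr2, 2310031A07Rik or other named UMI that were compared were lower after thinning. A minimum of 20 cells could not be fitted for either node alone or the tumour, and leaving out a mouse could not be fitted for tumour against nodes, where 1 pair remains. With 6 cells per KO tumour, a gene without a UMI there may still have one in up to 50.0% of such cells.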
